A study of Mus musculus with 12 samples.

Results

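The levels of 48 genes that encode enzymes of amino acid breakdown were measured by RNA-seq in livers of mice that lacked the nuclear receptor PPARα in hepatocytes or carried it, on chow or on a diet that injures the liver. The genes were listed by name and found by their symbol among the 55357 genes of the count table. Each of the 48 was found once, and all 48 passed the filter on low counts among 17358 genes tested. The mice were male C57BL/6J animals, and all of them, controls included, carried floxed Ppara alleles (Ppara fl/fl). PPARα KO mice also carried a Cre recombinase under the Albumin promoter, which acts in hepatocytes, while WT mice did not carry the Cre transgene, so that Cre itself and the loss of PPARα cannot be told apart. From 7 to 13 weeks of age the mice received chow or a high-fat diet low in choline whose protein is replaced by single L-amino acids (CDAHFD) for 6 weeks. The CDAHFD supplied less of its energy as protein than chow did, so that the effects of fat, choline and amino acid supply cannot be told apart. The groups held 4 libraries of WT mice on chow (WT chow), 3 of WT mice on CDAHFD (WT CDAHFD), 2 of KO mice on chow (KO chow) and 3 of KO mice on CDAHFD (KO CDAHFD). These are the groups of the sample labels. The study's methods name equal group sizes, and its histology lists the numbers of KO mice per diet the other way round, so that a swap of diet between KO libraries, which would change each KO chow, KO CDAHFD and interaction value, was not tested.

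Amino acids that are not needed for protein synthesis are broken down mainly in the liver. The amino group is moved to α-ketoglutarate by transaminases or set free by lyases, dehydratases and oxidases, and the carbon skeleton is taken apart in a route of its own for each amino acid, to glucose precursors, ketone body precursors or one-carbon units. Several of the routes run mainly in hepatocytes, and the genes of their first steps, such as Tat and Tdo2, are textbook targets of glucocorticoids and glucagon. PPARα is best known as the fatty acid sensor that switches on fat oxidation in fasting. It binds DNA as a pair with the retinoid X receptor at direct repeats of the hexamer AGGTCA.

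Total counts per library ran from 29906785 to 43551003. Ppara itself stood at 14.4 and 38.7 CPM (counts relative to the library total, scaled by TMM) in KO chow and at 36.3, 20.7 and 51.9 CPM in KO CDAHFD, below each of the 4 WT chow libraries at 120.1, 96.2, 238 and 226 CPM and the 3 WT CDAHFD libraries at 59.5, 75.5 and 73.5 CPM. All 11 hepatocyte markers were detected, and their summed level was 130600 to 141300 CPM in WT mice and 111300 to 122000 CPM in KO mice on chow. Under CDAHFD it was 74220 to 86170 CPM in WT and 69470 to 88950 CPM in KO mice. Without TMM scaling the order on chow turned. The hepatocyte markers then held 11.54% and 12.52% of all counts in KO chow, above the 10.23% to 11.07% of WT chow. In the CDAHFD libraries they held 8.73% to 10.04%. Of 10 macrophage markers, 9 were higher in KO chow and 8 in each CDAHFD group than in WT chow, and their sum was 366 to 662 CPM in WT chow, 1479 to 1625 CPM in KO chow, 2511 to 2799 CPM in KO CDAHFD and 2499 to 3421 CPM in WT CDAHFD. In KO chow 5 of 8 stellate cell markers, 4 of 5 cholangiocyte markers, 3 of 3 neutrophil markers tested and 5 of 5 markers of dividing cells were also higher. In this order 5, 5, 3 and 5 were higher in WT CDAHFD and 6, 5, 3 and 5 in KO CDAHFD. Of 5 T and NK cell markers 4, 3 and 4 were higher (KO chow, WT CDAHFD, KO CDAHFD). Of 7 endothelial markers 1 was higher in KO chow and 4 were lower in each CDAHFD group. Of 4 B cell markers 0 were called. Of all genes tested 22%, 26.1% and 26.9% were higher and 17%, 25% and 25.4% lower. No marker of these lists was at 0 in every library. In RNA of whole liver, fewer hepatocytes and less RNA per hepatocyte cannot be told apart, and the part of these marker changes in the results on the 48 genes was not tested.

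Most of the 48 genes fell in each group that departed from WT chow (edgeR's quasi-likelihood test, Benjamini-Hochberg adjustment over all genes tested, call at an adjusted p under 0.05). In KO chow, 33 of 48 genes were lower and 2 were higher than in WT chow, where 17% of all genes tested were called lower, 22% higher and 39% in either direction. WT CDAHFD had 45 of 48 lower and 0 higher, beside 25% lower, 26.1% higher and 51.1% called either way among all genes tested. KO CDAHFD had 42 of 48 lower and 0 higher, beside 25.4%, 26.9% and 52.4%. The 48 genes had a median log2 fold change of -0.71 in KO chow, where all genes tested had 0.0022, of -0.94 in KO CDAHFD (all genes -0.040) and of -1.06 in WT CDAHFD (all genes -0.048). The 11 hepatocyte markers fell by similar amounts, with medians of -0.59 in KO chow, -0.97 in KO CDAHFD and -0.95 in WT CDAHFD. Of these 11 markers, 8, 9 and 10 were called lower in the same order and 0 higher. A difference between the 48 genes and these markers was not tested. The 3 comparisons share the 4 WT chow libraries, so their counts are only set side by side.

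The size of these counts depended on how the libraries were scaled. WT chow libraries had TMM factors of 0.729 to 0.827 and the other libraries of 1.03 to 1.26. With library size alone, the median of all genes moved to 0.40 (KO chow), 0.51 (WT CDAHFD) and 0.57 (KO CDAHFD), and the counts became 20 lower and 4 higher in KO chow, 30 and 3 after CDAHFD in WT mice and 25 and 4 after CDAHFD in KO mice. Scaling to the hepatocyte markers moved the median of all genes to 0.25, 0.71 and 0.78 and gave 26 lower and 3 higher, 21 and 3, and 17 and 7 in the same order. Among the genes given below with each library's value, the calls lost with library size alone were Hal and Aass in KO chow, Acmsd, Cdo1 and Csad in WT CDAHFD and Acmsd, Dmgdh, Mccc2 and Tat in KO CDAHFD. With the hepatocyte markers they were Acmsd, Cdo1, Csad, Dmgdh, Pcca, Prodh and Tat in WT CDAHFD and Acmsd, Cdo1, Dmgdh, Mccc2, Prodh2 and Tat in KO CDAHFD. Genes given below without library values lost calls with both scalings as well, in KO chow and in both CDAHFD groups. Relative to the median of all genes, the median of the 48 genes in KO chow was -0.71 with TMM, -0.70 with library size alone and -0.70 with the hepatocyte markers. The values were -1.009, -1.002 and -1.006 in WT CDAHFD and -0.90, -0.90 and -0.91 in KO CDAHFD. A change of scaling shifts all genes of a comparison by nearly the same amount. The near-equal values therefore follow by construction and are no test of stability.

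**Figure D1:**
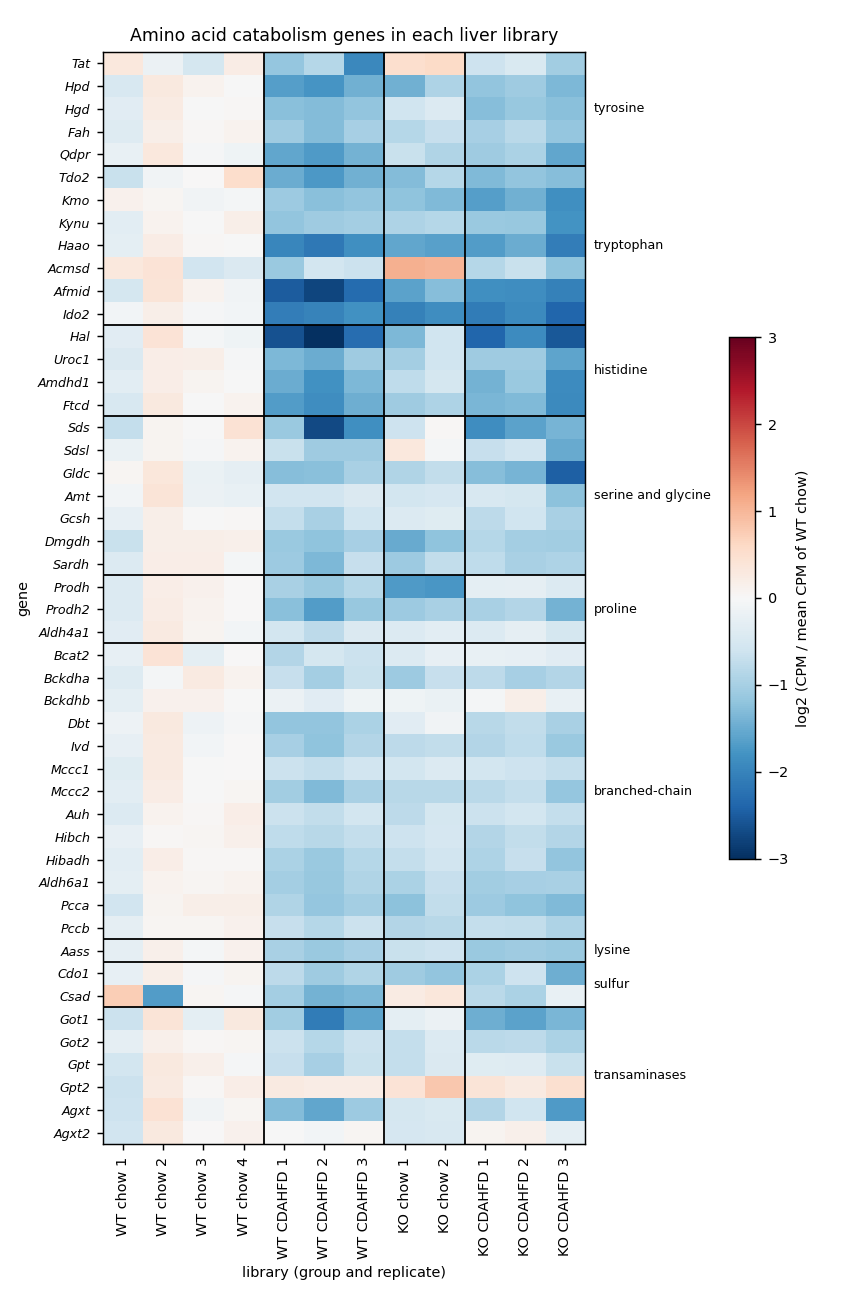
Level of each of the 48 genes (vertical axis, grouped by route) in each of the 12 libraries (horizontal axis), as the log2 ratio of its CPM (TMM library sizes) to the mean CPM of the 4 WT chow libraries. Blue marks lower and red higher levels, and most genes are blue in the 8 libraries outside WT chow, with Acmsd, Tat and Gpt2 among those red in KO chow.

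Library by library, 34 of 48 genes were lower in both KO chow libraries than in any WT chow library (23% of all genes tested), 43 of 48 were so in WT CDAHFD (27.4%) and 38 of 48 in KO CDAHFD (24.8%). Within WT chow, replicate 1 was the lowest of the 4 libraries for 40 of 48 genes and replicate 2 the highest for 34. In KO chow, leaving out WT chow replicate 1 kept all 33 genes that were called lower, whereas leaving out KO chow replicate 1 kept 19 of 33 and left 21 called in all. The genes it lost were Amdhd1, Auh, Bckdha, Gldc, Got2, Gpt, Hal, Hgd, Hibadh, Mccc1, Pcca, Sardh, Tdo2 and Uroc1. Leaving out KO chow replicate 2 lost Amdhd1, Gldc, Gpt, Mccc1 and Qdpr. In WT CDAHFD, leaving out any 1 library left 43 to 45 genes called.

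The genes without a call differed from group to group. In KO chow these were Tat, Sds, Sdsl, Amt, Gcsh, Aldh4a1, Bcat2, Bckdhb, Dbt, Csad, Got1, Agxt and Agxt2, and the 2 that rose were Acmsd and Gpt2. In WT CDAHFD they were Bckdhb, Gpt2 and Agxt2, and in KO CDAHFD Prodh, Bcat2 and Csad were added to these.

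**Figure D2:**
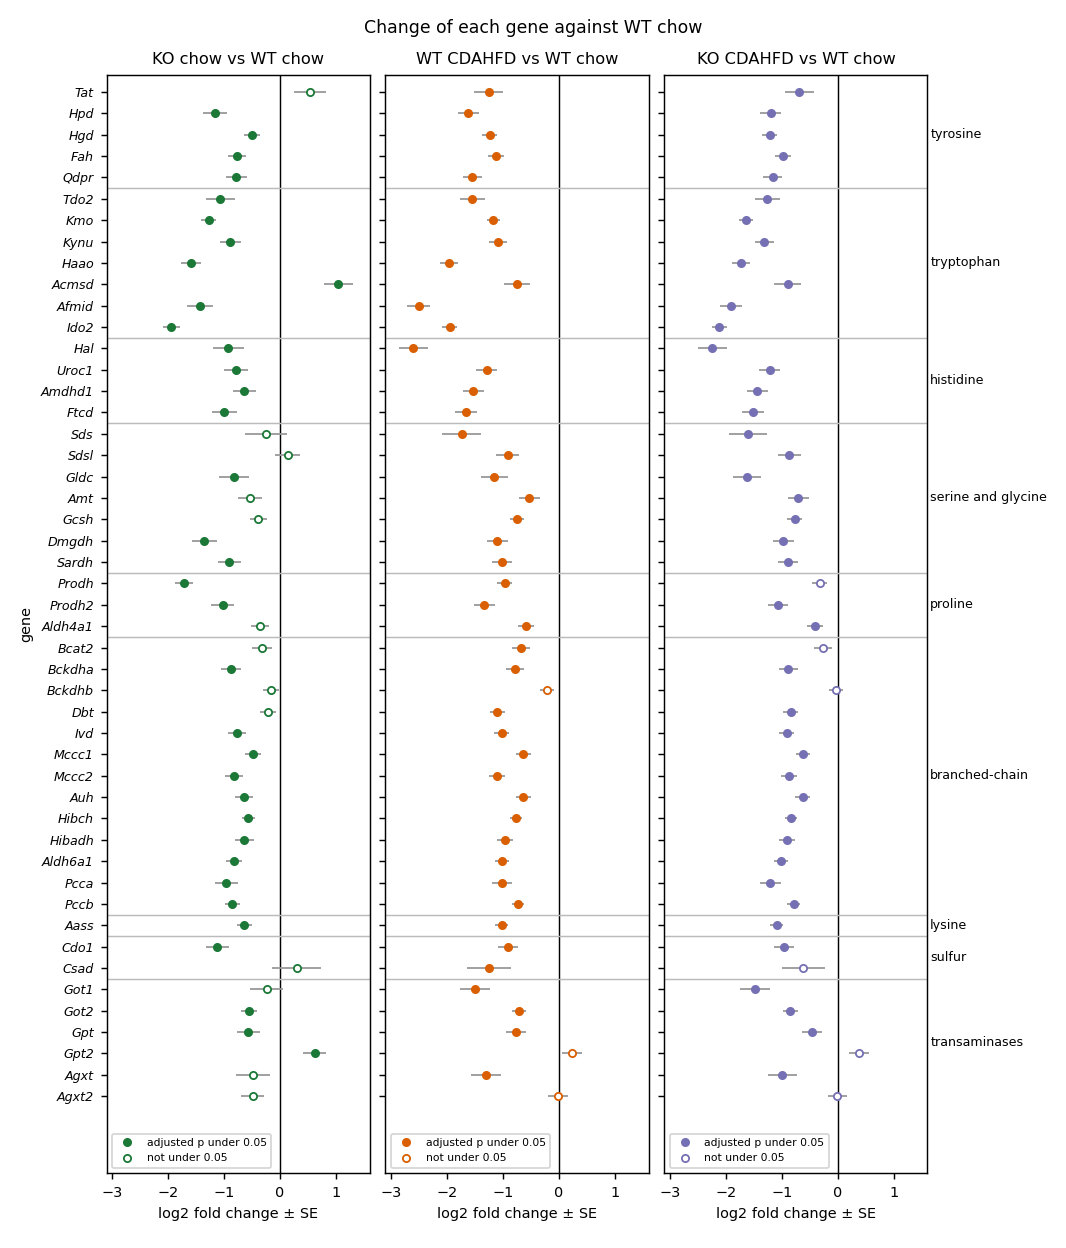
Log2 fold change against WT chow with its standard error (horizontal axis) for each of the 48 genes (vertical axis, grouped by route) in the 3 other groups. Filled points passed an adjusted p of 0.05 and open points did not, and 33 (KO chow), 45 (WT CDAHFD) and 42 (KO CDAHFD) filled points lie left of 0.

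Levels between genes were compared per length of exonic sequence (RPKM, CPM per kilobase). In WT chow the highest of the 48 genes was Cdo1 with 1104 ± 137 RPKM (SD, n = 4), followed by Hpd with 1015 ± 215, Tat with 708 ± 180.0 and Tdo2 with 617 ± 205 RPKM. Cdo1 and Hpd, and likewise Tat and Tdo2, differed by less than their spread between libraries. At the low end stood Mccc1 with 6.37 ± 1.11 and Auh with 5.17 ± 0.885 RPKM.

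The 250 bases before the start of transcription were searched for the hexamer that PPARα and other nuclear receptors bind (RefSeq start sites, GRCm38.p6). A window was at hand for 41 of the 48 genes, and 12 of these held AGGTCA on either strand (29.3%), as did 11.3% of the 12133 windows of genes tested. The 12 genes were Aass, Acmsd, Amt, Bckdhb, Got1, Got2, Haao, Hgd, Prodh2, Sardh, Tdo2 and Uroc1. No window of the 41 held the exact tandem of the hexamer spaced by 1 base, a motif that contains AGGTCA and stood in 0.0659% of all windows. Of the 12 genes with the hexamer, 8 were lower, 1 was higher and 3 were not called in KO chow, and of the 29 without it 21 were lower, 1 was higher and 7 were not called. The windows of Sdsl, Dbt, Ido2, Gpt, Cdo1, Kynu and Sds were not used here. A match describes these letters only and is not a binding site. The windows of Got1 (chr19:43524606-43524855, minus strand), Hgd (chr16:37579903-37580152, plus strand) and Aass (chr6:23132987-23133236, minus strand) overlap no annotated exon. They are shown as examples. Got1 was called lower in the CDAHFD groups and not in KO chow, while Hgd and Aass were lower in KO chow as well. The hexamer is in capitals, read as TGACCT where it lies on the other strand. Its first base lies 244 bases before the start in Got1, 84 in Hgd and 127 in Aass.
Got1: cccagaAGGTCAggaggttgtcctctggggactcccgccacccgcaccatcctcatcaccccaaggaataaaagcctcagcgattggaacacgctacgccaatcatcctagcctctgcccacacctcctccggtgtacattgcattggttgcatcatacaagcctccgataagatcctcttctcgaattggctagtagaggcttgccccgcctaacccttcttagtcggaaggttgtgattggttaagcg
Hgd: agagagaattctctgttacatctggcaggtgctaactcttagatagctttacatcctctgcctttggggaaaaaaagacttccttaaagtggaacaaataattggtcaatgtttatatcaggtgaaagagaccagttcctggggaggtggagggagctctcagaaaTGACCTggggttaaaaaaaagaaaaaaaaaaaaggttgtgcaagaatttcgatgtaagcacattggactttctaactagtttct
Aass: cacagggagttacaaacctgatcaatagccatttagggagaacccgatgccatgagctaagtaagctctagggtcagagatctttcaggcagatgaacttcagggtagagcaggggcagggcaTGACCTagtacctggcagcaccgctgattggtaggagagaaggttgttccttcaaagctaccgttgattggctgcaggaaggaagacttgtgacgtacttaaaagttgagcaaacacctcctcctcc

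Tyrosine breakdown runs through Tat, the transaminase that takes off the amino group, Hpd and Hgd, the dioxygenases that turn the ring into homogentisate and open it, and Fah, which splits the last intermediate. Qdpr recycles the biopterin cofactor of the step that makes tyrosine. Hpd (ENSMUSG00000029445, chr5:123171807-123182727, positions from GRCm38 with GENCODE M21) stood at 1540.0, 2626, 2319 and 2154 CPM in WT chow, against 796 and 1128 in KO chow, 948, 1027 and 848 in KO CDAHFD and 684, 633 and 796 in WT CDAHFD. Each library outside WT chow lay below the lowest WT chow library. Hpd was 2.25-fold lower in KO chow (log2 fold change -1.17 ± 0.21 (SE), adjusted p = 9.47e-04), 3.07-fold lower in WT CDAHFD (adjusted p = 1.52e-05) and 2.3-fold lower in KO CDAHFD (adjusted p = 1.47e-04). Tat (ENSMUSG00000001670, chr8:109990437-109999803) had 2119, 1510.0, 1188 and 1993 CPM in WT chow and 756, 941 and 443 in WT CDAHFD, where no library reached the lowest of WT chow. In KO chow it had 2421 and 2518 CPM, above each WT chow library, and in KO CDAHFD 1103, 1244 and 820.3. Tat was 2.39-fold lower in WT CDAHFD (adjusted p = 0.00148), whereas KO chow did not pass the test (log2 fold change 0.54 ± 0.28, adjusted p = 0.151). With library size alone, scaling to hepatocyte markers or no filter on low counts Tat was called higher in KO chow, and its call in WT CDAHFD was lost with scaling to hepatocyte markers (adjusted p = 0.114). The call in KO CDAHFD (log2 fold change -0.69 ± 0.26, adjusted p = 0.038) was lost without any 1 of WT chow replicates 1, 2 and 4, WT CDAHFD replicate 1, KO chow replicate 1 and KO CDAHFD replicates 1 and 3, and its direction flipped when libraries were scaled to hepatocyte markers. Hgd, Fah and Qdpr were lower in all 3 groups, by log2 fold changes of -0.50, -0.77 and -0.78 in KO chow and -1.24, -1.12 and -1.55 in WT CDAHFD.

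Tryptophan is opened by the dioxygenases Tdo2 and Ido2, and Afmid, Kmo, Kynu and Haao carry the product down the kynurenine route to an intermediate that can cyclise to quinolinate, a precursor of NAD. Acmsd removes that intermediate, and so decides how much is left for NAD. The tryptophan genes held the largest change of the 48 genes in KO chow, that of Ido2 (ENSMUSG00000031549, chr8:24531892-24576333), with 122, 147, 126 and 122 CPM in WT chow, against 31.6 and 35.5 in KO chow, 30.4, 34.1 and 24.7 in KO CDAHFD and 30.9, 32.4 and 36.6 in WT CDAHFD. No library of the 3 groups exceeded 36.6 CPM, and Ido2 was 3.85-fold lower in KO chow (adjusted p = 1.27e-06), 3.88-fold lower in WT CDAHFD (adjusted p = 1.50e-07) and 4.34-fold lower in KO CDAHFD (adjusted p = 8.37e-08). Haao (ENSMUSG00000000673, chr17:83831156-83847963) had 479, 676, 599.8 and 576 CPM in WT chow, against 197 and 189 in KO chow, 182, 208 and 139 in KO CDAHFD and 149, 133 and 164 in WT CDAHFD, again without overlap with WT chow (log2 fold change -1.60 ± 0.18, -1.73 ± 0.16 and -1.97 ± 0.16 in the order given, adjusted p = 2.47e-05, 1.80e-06 and 6.86e-07). Afmid (ENSMUSG00000017718, chr11:117825924-117839908), the formamidase, had 26.2, 49.6, 40.8 and 35.3 CPM in WT chow, against 12.4 and 15.8 in KO chow, 10.6, 10.5 and 9.25 in KO CDAHFD and 6.76, 5.65 and 7.69 in WT CDAHFD. It was 2.7-fold lower in KO chow (adjusted p = 3.17e-04) and 5.67-fold lower in WT CDAHFD (adjusted p = 7.79e-07). Afmid overlaps Tk1 on the other strand, a gene with 96.5% as many counts, and reads in the overlap cannot be assigned in these non-directional libraries. Tdo2, Kmo and Kynu were lower in all 3 groups, with log2 fold changes of -1.07, -1.27 and -0.89 in KO chow.

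Acmsd (ENSMUSG00000026348, chr1:127729413-127767978), the decarboxylase that draws carbon away from NAD synthesis, was the 1 tryptophan gene that rose in KO chow. Its levels were 78.2 and 76.8 CPM in KO chow, 46.7, 50.4, 25.5 and 28.0 in WT chow, 17.4, 25.6 and 24.1 in WT CDAHFD and 20.7, 23.8 and 16.3 in KO CDAHFD. Both KO chow libraries lay above all 10 others, while WT CDAHFD and WT chow overlapped by 1 library each. Acmsd was 2.06-fold higher in KO chow than in WT chow (log2 fold change 1.04 ± 0.26, adjusted p = 0.00626), and this call held under each of the 20 alternatives run. It was 1.69-fold lower in WT CDAHFD (adjusted p = 0.0183) and 1.86-fold lower in KO CDAHFD (adjusted p = 0.00716). The call in WT CDAHFD was lost with only the groups compared, without WT chow replicate 1, without WT chow replicate 2 or without WT CDAHFD replicate 1. Both of these calls were lost with library size alone and with scaling to hepatocyte markers, where the direction in WT CDAHFD flipped. The 4 WT chow libraries split into 46.7 and 50.4 against 25.5 and 28.0 CPM, the same split as in a score of 15 clock genes (-3.59 and -3.31 against 2.25 and 2.41), and the part of the time of day was not tested beyond a fit with that score as a covariate, in which Acmsd stayed called in all 3 comparisons.

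Histidine is broken down by Hal, the lyase that removes ammonia, Uroc1, Amdhd1 and Ftcd, the last of which hands a one-carbon unit to folate. All 4 genes were lower in each of the 3 groups. Hal (ENSMUSG00000020017, chr10:93488768-93519304) had 512, 864, 625 and 594 CPM in WT chow, against 257 and 426 in KO chow, 125, 174 and 112 in KO CDAHFD and 106, 79.6 and 134 in WT CDAHFD. The CDAHFD libraries lay below both KO chow libraries, and these below WT chow. Its 6.08-fold fall in WT CDAHFD was the largest of the 48 genes in that comparison (log2 fold change -2.60 ± 0.26, adjusted p = 4.23e-06), and in KO CDAHFD it was 4.73-fold lower (adjusted p = 1.20e-05). In KO chow Hal was 1.9-fold lower (adjusted p = 0.0197), a call that was lost without KO chow replicate 1. Ftcd (ENSMUSG00000001155, chr10:76575648-76590338) had 498, 851, 688 and 752 CPM in WT chow, against 333 and 366 in KO chow, 268, 280.4 and 184 in KO CDAHFD and 219, 191 and 251 in WT CDAHFD. No library of the 3 groups reached WT chow, and the fall was 1.99-fold in KO chow (adjusted p = 0.00338) and 3.16-fold in WT CDAHFD (adjusted p = 1.71e-05). Hal and Amdhd1 lie 4033 bases apart on chromosome 10, on opposite strands, and Amdhd1 changed by -0.64 on the log2 scale in KO chow, -1.44 in KO CDAHFD and -1.53 in WT CDAHFD.

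Serine and glycine leave the pool by several doors. Sds and Sdsl are dehydratases that turn serine to pyruvate, Gldc, Amt and Gcsh are parts of the mitochondrial glycine cleavage system, and Dmgdh and Sardh demethylate dimethylglycine and sarcosine, the products of choline and methyl group breakdown. All 7 genes were lower in both CDAHFD groups, and 3 of 7 (Gldc, Dmgdh and Sardh) in KO chow. With scaling to hepatocyte markers only Sds kept the call in WT CDAHFD, and only Sds and Gldc in KO CDAHFD. Library size alone lost Amt, Gcsh and Sdsl in both CDAHFD groups, and Dmgdh and Sardh in KO CDAHFD. Both scalings lost Gldc in KO chow. The call of Amt in WT CDAHFD was also lost without WT chow replicate 2 or without any 1 WT CDAHFD library. Dmgdh (ENSMUSG00000042102, chr13:93674433-93752833) had 400.3, 725, 719 and 708 CPM in WT chow, against 224 and 276 in KO chow, 352, 312 and 308 in KO CDAHFD and 295, 276 and 319 in WT CDAHFD. KO chow had the lowest mean, but its replicate 2 (275.6 CPM) was nearly level with WT CDAHFD replicate 2 (276.1 CPM). Dmgdh was not called between KO chow and either CDAHFD group. WT chow replicate 1 lay far from the 3 other WT chow libraries. Dmgdh was 2.55-fold lower in KO chow (log2 fold change -1.35 ± 0.22, adjusted p = 3.68e-04) and 2.15-fold lower in WT CDAHFD (adjusted p = 3.21e-04). Sds (ENSMUSG00000029597, chr5:120476526-120483932) had 88.9, 154, 145 and 198 CPM in WT chow, against 94.7 and 150.3 in KO chow, 40.6, 48.4 and 55.5 in KO CDAHFD and 67.9, 22.5 and 41.1 in WT CDAHFD. KO chow lay within the range of WT chow, and every CDAHFD library lay below it. The fall was 3.34-fold in WT CDAHFD (log2 fold change -1.74 ± 0.34, adjusted p = 0.00107) and 3.04-fold in KO CDAHFD (adjusted p = 0.00169), against a log2 fold change of -0.26 ± 0.37 in KO chow (adjusted p = 0.619). Its exons overlap those of Plbd2 on the other strand, which has 102% as many counts. Sdsl, 3715 bases from Sds on chromosome 5, had log2 fold changes of 0.13 in KO chow (not called) and -0.92 in WT CDAHFD. Gldc had log2 fold changes of -0.82 ± 0.27 in KO chow, -1.62 ± 0.24 in KO CDAHFD and -1.15 ± 0.24 in WT CDAHFD.

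Proline is oxidised by Prodh and its hydroxylated form by Prodh2, and Aldh4a1 takes the product of both on to glutamate or its hydroxylated form. Prodh (ENSMUSG00000003526, chr16:18060357-18090203) had 124, 189, 179 and 166 CPM in WT chow, against 50.8 and 49.3 in KO chow, 135, 136 and 125 in KO CDAHFD and 84.0, 76.3 and 91.2 in WT CDAHFD. The KO chow libraries were the lowest, WT CDAHFD came next, and KO CDAHFD overlapped WT chow. Prodh was 3.29-fold lower in KO chow (log2 fold change -1.72 ± 0.16, adjusted p = 5.22e-06), 1.96-fold lower in WT CDAHFD (adjusted p = 6.70e-05) and not called in KO CDAHFD (log2 fold change -0.32 ± 0.13, adjusted p = 0.058), where scaling to library size or to hepatocyte markers turned the direction. With both of these scalings Prodh was called higher there, and with the clock score as covariate or without WT chow replicate 1 it was called lower. Prodh2 (ENSMUSG00000036892, chr7:30493622-30513402) had 216, 336, 309 and 289 CPM in WT chow, against 136 and 146 in KO chow, 147, 158 and 108 in KO CDAHFD and 121, 90.3 and 131 in WT CDAHFD. It was lower in all 3 groups without overlap with WT chow (2.04-fold, 2.09-fold and 2.52-fold in the order given, adjusted p = 0.00189, 3.12e-04 and 5.87e-05). Aldh4a1 changed by -0.58 on the log2 scale in WT CDAHFD and was not called in KO chow (-0.36, adjusted p = 0.0993).

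Of the 13 genes of branched-chain breakdown, 10 were lower in KO chow, 11 in KO CDAHFD and 12 in WT CDAHFD. The median log2 fold change in KO chow was -0.64, against -1.27 for the 7 tryptophan genes and -0.86 for the 4 histidine genes. For the other routes it was -1.03 (proline), -0.77 (tyrosine), -0.64 (lysine, 1 gene), -0.53 (serine and glycine), -0.49 (transaminases) and -0.42 (sulfur). In WT CDAHFD the same medians were -0.79, -1.55 and -1.60. Those of the other routes there were -0.97, -1.26, -1.025, -1.02, -0.75 and -1.08 in the order given. Differences between routes were not tested. Bcat2 is the transaminase, Bckdha, Bckdhb and Dbt are subunits of the dehydrogenase complex that commits the keto acids, and the others act on the separate acyl-CoA branches of leucine (Ivd, Mccc1, Mccc2, Auh), valine (Hibch, Hibadh, Aldh6a1) and the shared propionyl-CoA step (Pcca, Pccb). The 9 genes below the complex were lower in all 3 groups. With scaling to hepatocyte markers only Ivd and Mccc2 of them kept the call in WT CDAHFD, and only Pcca in KO CDAHFD. That scaling also lost Hibch and Mccc1 in KO chow. Library size alone lost Auh, Hibadh, Hibch and Mccc1 in KO chow. It lost Auh, Hibch, Mccc1 and Pccb in WT CDAHFD, and Auh, Mccc1, Mccc2 and Pccb in KO CDAHFD. Pcca (ENSMUSG00000041650, chr14:122534324-122891100), the propionyl-CoA carboxylase α subunit, had 74.2, 118, 126 and 124 CPM in WT chow, against 47.4 and 66.0 in KO chow, 51.8, 48.1 and 44.1 in KO CDAHFD and 59.3, 49.5 and 54.2 in WT CDAHFD. All 8 libraries of the 3 groups lay below the lowest WT chow library, which stood apart from the 3 others. The fall was 1.95-fold in KO chow (adjusted p = 0.00273, lost without KO chow replicate 1), 2.04-fold in WT CDAHFD (adjusted p = 4.25e-04) and 2.3-fold in KO CDAHFD (adjusted p = 1.18e-04), and Ggact, which overlaps it on the other strand, has 81.4% as many counts. Mccc2 (ENSMUSG00000021646, chr13:99948530-100015639), a subunit of the leucine carboxylase, had 65.8, 95.1, 81.0 and 84.2 CPM in WT chow, against 46.2 and 46.0 in KO chow, 46.7, 50.1 and 36.3 in KO CDAHFD and 39.8, 32.5 and 41.3 in WT CDAHFD. The groups did not overlap WT chow, and Mccc2 was 2.15-fold lower in WT CDAHFD (adjusted p = 4.75e-05) and 1.77-fold lower in KO chow (adjusted p = 0.00198).

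The subunits of the dehydrogenase complex had different calls, and the differences between them were not tested. Bckdha was lower in all 3 groups (log2 fold change -0.88 ± 0.19 in KO chow, -0.88 ± 0.16 in KO CDAHFD and -0.79 ± 0.16 in WT CDAHFD). Dbt was lower in WT CDAHFD (-1.10 ± 0.13, adjusted p = 1.78e-05) and KO CDAHFD (-0.84 ± 0.13) and was not called in KO chow (-0.22 ± 0.15, adjusted p = 0.26). Bckdhb, the partner of Bckdha in the same enzyme, had 56.2, 74.4, 75.2 and 68.0 CPM in WT chow, against 62.2 and 59.9 in KO chow, 65.2, 77.7 and 58.9 in KO CDAHFD and 60.7, 53.7 and 63.0 in WT CDAHFD, and its groups overlapped throughout. It was called in none of the 3 comparisons (log2 fold change -0.17 ± 0.14, -0.03 ± 0.13 and -0.21 ± 0.13 in the order given, adjusted p = 0.391, 0.884 and 0.181), and the direction in KO chow and WT CDAHFD flipped with library size alone and with scaling to hepatocyte markers. Those scalings called it higher in both CDAHFD groups. Bcat2 was lower in WT CDAHFD alone (-0.67 ± 0.16, adjusted p = 0.00366), and 0610005C13Rik, which overlaps it on the other strand, has 344% as many counts.

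Aass, the bifunctional enzyme that starts lysine breakdown, is the one lysine gene of the list. Aass (ENSMUSG00000029695, chr6:23072173-23132986) had 347, 459, 400.5 and 454 CPM in WT chow, against 263 and 271 in KO chow, 192, 199.5 and 192 in KO CDAHFD and 212, 190.4 and 209.7 in WT CDAHFD. The 3 groups lay below WT chow without overlap, with log2 fold changes of -0.64 ± 0.13, -1.09 ± 0.11 and -1.02 ± 0.11 in the order given (adjusted p = 0.00169, 4.78e-06 and 8.89e-06).

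Cysteine is oxidised by Cdo1, and Csad then makes the taurine precursor hypotaurine from the product. Cdo1 (ENSMUSG00000033022, chr18:46713193-46728395) had 1527, 2047, 1759 and 1930.0 CPM in WT chow, against 864 and 799.8 in KO chow, 944, 1176 and 662 in KO CDAHFD and 1046, 872 and 976 in WT CDAHFD, and each library of the 3 groups lay below WT chow. It was 2.18-fold lower in KO chow (adjusted p = 9.15e-04), 1.88-fold in WT CDAHFD (adjusted p = 9.00e-04) and 1.96-fold in KO CDAHFD (adjusted p = 5.39e-04). Scaling to hepatocyte markers took the log2 fold change to -0.16 in WT CDAHFD (adjusted p = 0.284) and to -0.18 in KO CDAHFD (adjusted p = 0.23), and library size alone also lost the call in WT CDAHFD. Csad (ENSMUSG00000023044, chr15:102176999-102204724), the next step, had 493, 91.3, 305 and 286 CPM in WT chow, against 350.0 and 369.7 in KO chow, 169, 153 and 253 in KO CDAHFD and 145, 109.5 and 116 in WT CDAHFD. Its WT chow libraries spanned the range of all other groups, with replicate 2 below every other library. Csad was 2.38-fold lower in WT CDAHFD (log2 fold change -1.25 ± 0.40, adjusted p = 0.019), a call that was lost without WT chow replicate 1, WT CDAHFD replicate 2 or WT CDAHFD replicate 3, and was not called in KO chow (0.29 ± 0.43, adjusted p = 0.624). In KO CDAHFD its log2 fold change was -0.62 ± 0.39 (adjusted p = 0.205), and the direction flipped with scaling to hepatocyte markers. Without WT chow replicate 2 Csad was called lower in KO CDAHFD. Zfp740, on the other strand, overlaps it with 19.6% as many counts.

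Of the 6 transaminases, 2 were lower and 1 was higher in KO chow, and 4 were lower in each CDAHFD group. Got1 and Got2 are the cytosolic and mitochondrial aspartate transaminases, Gpt and Gpt2 the cytosolic and mitochondrial alanine transaminases, and Agxt and Agxt2 use glyoxylate as acceptor. Got1 (ENSMUSG00000025190, chr19:43499752-43524605) had 198, 406, 249.8 and 379 CPM in WT chow, against 252 and 272 in KO chow, 111, 102 and 119.9 in KO CDAHFD and 151, 72.3 and 103 in WT CDAHFD. KO chow lay within WT chow, and both CDAHFD groups lay below. Got1 was 2.84-fold lower in WT CDAHFD (log2 fold change -1.51 ± 0.27, adjusted p = 4.96e-04) and 2.78-fold lower in KO CDAHFD (adjusted p = 5.35e-04), with no call in KO chow (-0.24 ± 0.29, adjusted p = 0.561). Gpt2 (ENSMUSG00000031700, chr8:85492576-85527560) had 264, 497, 425 and 473 CPM in WT chow, against 547 and 727 in KO chow, 539, 499.5 and 579 in KO CDAHFD and 500.1, 484 and 481 in WT CDAHFD. Both KO chow libraries and all KO CDAHFD libraries lay above the highest WT chow library. Gpt2 was 1.54-fold higher in KO chow (adjusted p = 0.0294), a call lost with only the groups compared and without KO chow replicate 2. The log2 fold changes of 0.24 ± 0.18 in WT CDAHFD and 0.38 ± 0.18 in KO CDAHFD did not pass the test (adjusted p = 0.306 and 0.101). Both passed with library size alone and with scaling to hepatocyte markers, and the one in KO CDAHFD also passed with no filter on low counts and without WT chow replicate 2. Its cytosolic counterpart Gpt was lower in all 3 groups, with log2 fold changes of -0.57 in KO chow, -0.47 in KO CDAHFD and -0.78 in WT CDAHFD. All of these calls of Gpt were lost with library size alone and with scaling to hepatocyte markers, which called it higher in KO CDAHFD. Only the groups compared and the replicate block also lost its calls in KO chow and KO CDAHFD, and DESeq2 size factors in edgeR lost the one in KO CDAHFD. The call in KO chow held without WT chow replicate 1, WT CDAHFD replicate 2 or KO CDAHFD replicate 3 and was lost without any 1 of the 9 other libraries, and the call in KO CDAHFD held without WT chow replicate 1, WT CDAHFD replicate 2 or KO chow replicate 2 and was lost without any 1 of the 9 others. Agxt was lower in WT CDAHFD (-1.30) and KO CDAHFD (-0.99), and Got2 was lower in all 3 groups. Agxt2 had log2 fold changes of -0.49 ± 0.20 in KO chow (adjusted p = 0.0732), -0.01 ± 0.18 in KO CDAHFD (adjusted p = 0.975) and -0.01 ± 0.18 in WT CDAHFD (adjusted p = 0.956). Without WT chow replicate 1 it was called lower in KO chow, and with library size alone or scaling to hepatocyte markers it was called higher in both CDAHFD groups.

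**Figure D3:**
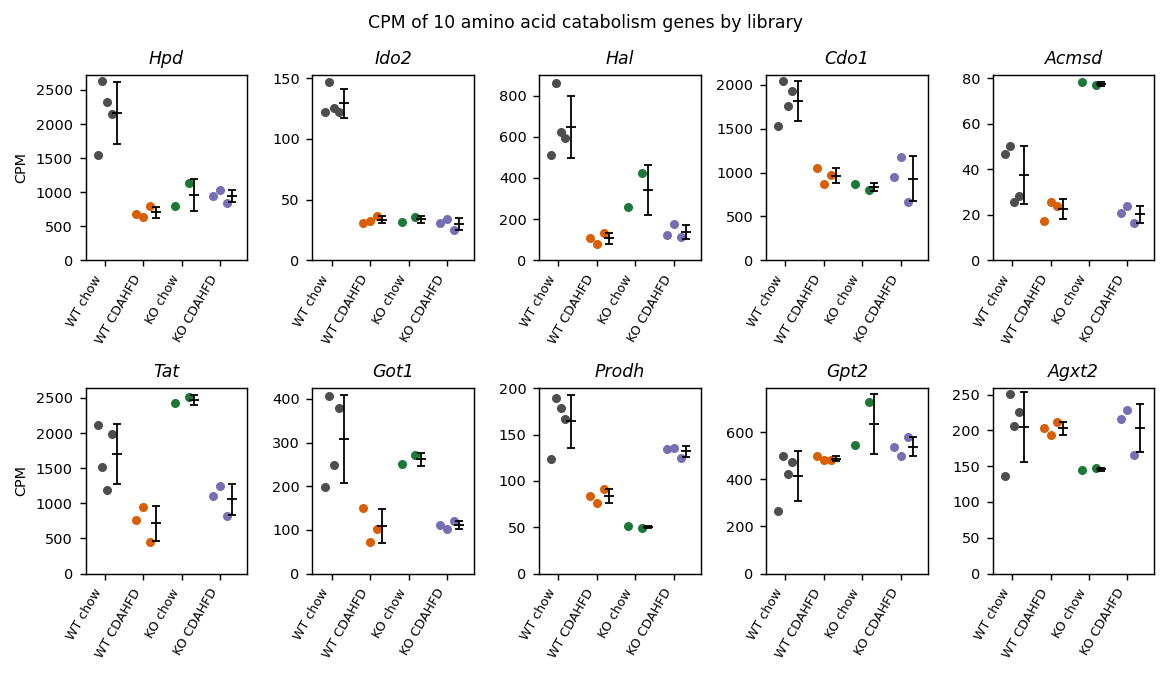
CPM (vertical axis, from 0) of 10 of the genes in each library, by group, with the group mean and SD as black bars (n = 4, 3, 2 and 3). Hpd, Ido2, Hal and Cdo1 are highest in WT chow, Acmsd and Tat are highest in KO chow, Got1 is lower in the CDAHFD groups than in both chow groups, and Prodh is lowest in KO chow.

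Under CDAHFD, no difference between genotypes passed the test for any of the 48 genes. KO CDAHFD compared with WT CDAHFD gave 0 higher and 0 lower, where 0.0864% of all genes tested were higher and 0.271% lower. At an unadjusted p under 0.05 there were 6 genes, a count given without the share of all genes, from which nothing is concluded. DESeq2 called 2 of the 48 genes, 1 higher and 1 lower, where it called 114 higher and 131 lower of 17358 genes. Log2 fold changes ran from -0.47 (Gldc) to 0.65 (Prodh), and their standard errors from 0.11 to 0.41 with a median of 0.18. Prodh came nearest to a call, at 135, 136 and 125 CPM in KO CDAHFD and 84.0, 76.3 and 91.2 in WT CDAHFD, without overlap in the direction in which 9.47% of all genes tested did not overlap (log2 fold change 0.65 ± 0.14, adjusted p = 0.101). Prodh was called higher in KO CDAHFD with library size alone, with DESeq2, without a filter on low counts, with only the groups compared and without WT chow replicate 1.

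Among KO mice, the diet changed 9 of the 48 genes (6.19% of all genes tested). In KO CDAHFD against KO chow, 8 genes were lower (2.44%) and 1 was higher (3.76%). Acmsd fell 3.83-fold (adjusted p = 0.00256), Hal 2.49-fold (adjusted p = 0.0191), Got1 2.36-fold (adjusted p = 0.0332) and Tat 2.34-fold (adjusted p = 0.0319), and Hgd, Amdhd1, Sdsl and Dbt were the 4 others that fell. Prodh rose 2.63-fold without overlap of the libraries (log2 fold change 1.40 ± 0.17, adjusted p = 8.71e-04), where 19.9% of all genes tested were higher without overlap. These counts rest on few libraries: without KO chow replicate 1 there were 3 calls, without KO chow replicate 2 there were 2, without KO CDAHFD replicate 1 there were 2 and without KO CDAHFD replicate 3 there were 3. With scaling to the hepatocyte markers, whose sum was lower in KO CDAHFD, the split became 2 lower and 21 higher. The calls of Acmsd and Prodh were kept under each of the 20 alternatives run, and those of Hal, Got1 and Tat were not.

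KO chow against WT CDAHFD asks where the loss of PPARα on chow and the diet in WT mice left different levels, and 12 of 48 genes were called (6.12% of all genes tested). KO chow was higher for 11 of them (2.71%) and lower for Prodh (3.42%). The larger differences were those of Acmsd (3.47-fold, adjusted p = 0.00279), Tat (3.46-fold, adjusted p = 0.00458), Hal (3.2-fold, adjusted p = 0.00474) and Sds (2.79-fold, adjusted p = 0.0421), and Hgd, Qdpr, Afmid, Amdhd1, Sdsl, Dbt and Got1 made up the rest. Prodh was 1.68-fold lower in KO chow (adjusted p = 0.0196). The call of Prodh was lost without WT CDAHFD replicate 1 or 3 or without either KO chow replicate, and that of Sds without any 1 of 8 libraries of the 4 groups. Leaving out a library of either group moved the number of calls from 12 to between 4 and 7 (5 without KO chow replicate 1, 4 without KO chow replicate 2, and 7, 5 and 7 without WT CDAHFD replicates 1, 2 and 3). Scaling to the hepatocyte markers gave 6 higher and 11 lower, and Acmsd and Tat stayed higher under each of the 20 alternatives run.

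The diet effect differed between genotypes for 27 of the 48 genes, in the test of the interaction of genotype and diet (23.1% of all genes tested). It lay above 0 for 26 genes (8.63% of all genes tested), meaning a smaller fall or a rise with CDAHFD in KO than in WT mice. It lay below 0 for Acmsd (14.5%). The same value is the genotype difference under CDAHFD minus that on chow. Each of the 26 genes was also called lower in KO chow, so these calls are not independent of those. Of the 11 hepatocyte markers 4 were called above 0 (median 0.54, against 0.76 for the 48 genes). Prodh had the largest value (2.37 ± 0.21 on the log2 scale, adjusted p = 1.16e-05), followed by Afmid (2.02 ± 0.30, adjusted p = 4.29e-04), Haao (1.84 ± 0.24, adjusted p = 1.61e-04) and Ido2 (1.78 ± 0.20, adjusted p = 5.05e-05). For Ido2 this is a fall from 129 to 33.3 mean CPM in WT and from 33.6 to 29.7 in KO mice. The value of Acmsd was -1.18 ± 0.36 (adjusted p = 0.0319), since it fell 3.83-fold with the diet in KO and 1.69-fold in WT mice, and this call was lost without any 1 of WT chow replicate 4, WT CDAHFD replicates 2 and 3, both KO chow replicates and KO CDAHFD replicates 1 and 3. Of the routes, 8 of 13 branched-chain genes, 6 of 7 tryptophan genes, 3 of 4 histidine genes, 3 of 5 tyrosine genes and 1 of 6 transaminases (Gpt) passed. Of the 26 calls above 0, library size alone kept 15. It lost Aass, Auh, Bckdha, Gpt, Hal, Hibadh, Hibch, Ivd, Kmo, Sardh and Uroc1. Scaling to hepatocyte markers kept 19 of them and lost Aass, Auh, Bckdha, Gpt, Hibadh, Hibch and Uroc1. Among the fits without 1 library, Hibch and Hibadh stayed called only without WT chow replicate 1 or KO CDAHFD replicate 3. Without KO chow replicate 1 the number of calls was 15.

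**Figure D4:**
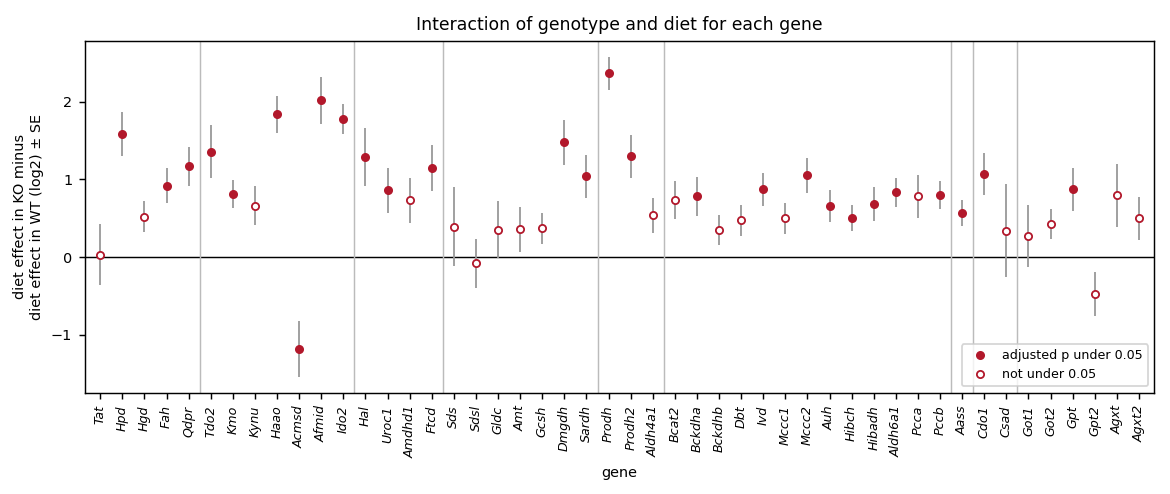
Interaction of genotype and diet for each of the 48 genes (horizontal axis), as the log2 effect of CDAHFD in KO minus that in WT mice with its standard error (vertical axis). Filled points passed an adjusted p of 0.05, 26 above 0 and Acmsd below, with Prodh highest at 2.37.

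Summed over the 48 genes, their share of all counts was 1.47% to 1.90% in WT chow, 1.36% and 1.54% in KO chow, 1.20% to 1.34% in KO CDAHFD and 1.06% to 1.15% in WT CDAHFD. KO chow and WT chow overlapped in this share, and both CDAHFD groups lay below WT chow. Per 100 counts on the 11 hepatocyte markers, the 48 genes had 13.6 to 17.1 counts in WT chow, 11.8 and 12.3 in KO chow, 13.3 to 14.2 in KO CDAHFD and 11.6 to 12.1 in WT CDAHFD. By this measure KO chow and WT CDAHFD lay below all WT chow libraries, and KO CDAHFD overlapped WT chow. A sum of this kind is led by the few most abundant genes, Hpd, Tat, Tdo2 and Cdo1 among them.

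**Figure D5:**
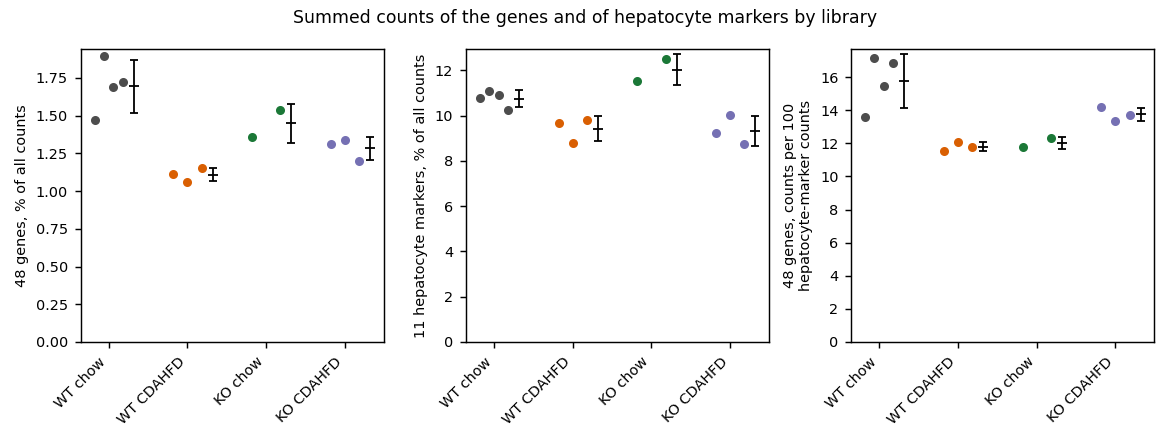
Share of all counts on the 48 genes (left), share on 11 hepatocyte markers (middle) and counts on the 48 genes per 100 hepatocyte-marker counts (right), 1 point per library with the group mean and SD as black bars. The share of the 48 genes is lowest in WT CDAHFD, and per 100 marker counts KO CDAHFD (13.3 to 14.2) overlaps WT chow (13.6 to 17.1).

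The neighbouring enzymes of the same routes were taken from a list of 45 genes, of which 43 were tested. In KO chow 29 of 43 were lower and 1 was higher, in WT CDAHFD 38 were lower and 1 was higher, and in KO CDAHFD 38 were lower and 1 was higher, against the same shares of all genes as above. The medians were -0.73, -1.02 and -0.97 on the log2 scale in the same order. The larger changes in KO chow were those of Glul (glutamine synthetase, -2.60 ± 0.13, adjusted p = 7.34e-08), Aadat (aminoadipate and kynurenine transaminase, -1.90, adjusted p = 2.65e-06), Ahcy (adenosylhomocysteine hydrolase, -1.56, adjusted p = 1.00e-05) and Bhmt (betaine methyltransferase, -1.54, adjusted p = 0.00942). Those in WT CDAHFD were Gnmt (glycine methyltransferase, -2.49, adjusted p = 2.59e-06), Aspg (asparaginase, -2.21, adjusted p = 3.54e-06), Gls2 (liver glutaminase, -1.94, adjusted p = 5.20e-06) and Pipox (pipecolate and sarcosine oxidase, -1.93, adjusted p = 1.44e-06). Asrgl1, an asparaginase-like enzyme, was the 1 gene that rose in each group (1.04 in KO chow, 0.71 in KO CDAHFD and 0.49 in WT CDAHFD). Glul had 1150.0, 1061, 1206 and 1114 CPM in WT chow, against 174 and 199 in KO chow, 1120.0, 1033 and 1205 in KO CDAHFD and 1086, 1066 and 1144 in WT CDAHFD. Both KO chow libraries lay below the 10 others, and KO CDAHFD was 6.01-fold above KO chow (adjusted p = 1.99e-06).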

How the data were processed

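Poly-A selected RNA of mouse liver was sequenced in 12 non-directional libraries. Each library has a code of its own in the labels, and per the study's methods the RNA came from livers of several mice a group. Per the submitters' notes, reads were checked with FastQC 0.11.5 and aligned to GRCm38 with STAR 2.7.3a. The authors deposited raw read counts per Ensembl gene, and the counting program and annotation are not given in the sources used here. Groups came from the sample labels, which give 4, 3, 2 and 3 libraries. Symbols and positions came from GENCODE M21, which names genes holding 99.691% of the counts, and promoter windows from RefSeq. Genes were filtered with edgeR's filterByExpr and fitted with TMM scaling and a mean for each of the 4 groups over all 12 libraries (edgeR 4.0.16, R 4.3.3, glmQLFit and glmQLFTest). Adjusted p are Benjamini-Hochberg values over 17358 genes, and a call means an adjusted p under 0.05. Standard errors are the log2 fold change divided by the root of F. CPM use TMM library sizes, with spreads as SD over libraries. Counting error is small at these depths, and a count of 0 allows up to 3 counts. No 2 libraries of a group agreed within sampling noise (chi-square per degree of freedom at least 19.9).

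The 48 genes and the gene lists were chosen with earlier results of these data known. Genes given with each library's value were the 1 with the largest called change of each route in KO chow and in WT CDAHFD, those higher than WT chow, and the 4 largest in each direction in the other comparisons. Library values of Bckdhb and Glul were added after their values were seen. Alternatives were other scalings (DESeq2 size factors, library size alone, hepatocyte markers), DESeq2 1.42.0, no filter, only the groups compared, a clock gene score as covariate, the replicate number as block, and leaving out each library. The steps were tested on simulated data. Some items are not reported here.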

Additional observations from a re-analysis of the deposited data

Results flagged for a closer look

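In WT chow, 4 of the 48 genes had a library set apart from the 3 others, with a gap to its neighbour over the whole range above Dixon's 95% critical value. Replicate 2 was high for Ido2 (0.854), and replicate 1 was low for Dmgdh (0.948), Aldh6a1 (0.841) and Pcca (0.847). Chance flags about 1 in 20 such groups.

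The effect of CDAHFD differed between KO and WT mice, by the test of the interaction, for 27 genes. In the aromatic routes the difference of the log2 effects (KO minus WT) was 1.58 for Hpd, 0.92 for Fah, 1.17 for Qdpr, 1.36 for Tdo2, 0.81 for Kmo, 1.84 for Haao, 2.02 for Afmid and 1.78 for Ido2, and -1.18 for Acmsd. Among histidine genes it was 1.29 for Hal, 0.86 for Uroc1 and 1.15 for Ftcd, and among those of glycine and proline 1.48 for Dmgdh, 1.04 for Sardh, 2.37 for Prodh and 1.30 for Prodh2. Branched-chain genes had 0.78 for Bckdha, 0.87 for Ivd, 1.05 for Mccc2, 0.66 for Auh, 0.50 for Hibch, 0.69 for Hibadh, 0.83 for Aldh6a1 and 0.80 for Pccb. The remaining values were 0.57 for Aass, 1.07 for Cdo1 and 0.87 for Gpt.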

How the results depend on the processing

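The number of genes called in the 3 comparisons with WT chow stayed within 1.5 times with DESeq2, DESeq2 size factors, no filter, only the groups compared, the clock score and the replicate block.  With library size alone the median log2 fold change of the 48 genes was -0.30 (KO chow), -0.33 (KO CDAHFD) and -0.49 (WT CDAHFD), and 17 genes were called in the interaction. With scaling to hepatocyte markers the medians were -0.46, -0.13 and -0.30, and 24 genes were called in WT CDAHFD, 24 in KO CDAHFD and 23 between KO CDAHFD and KO chow. By construction these scalings shift all genes. Genes that turned direction under library size included Prodh in KO CDAHFD (0.29), Bckdhb in KO chow (0.24), KO CDAHFD (0.58) and WT CDAHFD (0.35), Agxt2 in WT CDAHFD (0.55) and KO CDAHFD (0.60), and Sds (0.16) and Got1 (0.18) in KO chow, where neither was called. Under hepatocyte scaling they included Tat in KO CDAHFD (0.10), Acmsd in WT CDAHFD (0.0084), Prodh in KO CDAHFD (0.50), Csad in KO CDAHFD (0.22) Bckdhb in KO chow (0.085), KO CDAHFD (0.79) and WT CDAHFD (0.54), and Agxt2 in WT CDAHFD (0.75) and KO CDAHFD (0.81). Between KO CDAHFD and WT CDAHFD the 0 calls became 1 with library size, 2 with DESeq2, 1 without a filter and 1 with only the groups compared, and the cause was not tested. Of all genes, library size called 13 higher and 37 lower of 17358, and DESeq2 114 and 131 of 17358. Without a filter there were 91 and 124 of 30104, and with only the groups compared 60 and 94 of 16413.

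Leaving out 1 library gave 21 to 38 calls in KO chow, 39 to 42 in KO CDAHFD, 43 to 45 in WT CDAHFD, 0 to 1 between KO CDAHFD and WT CDAHFD, 2 to 12 between KO CDAHFD and KO chow, 4 to 16 between KO chow and WT CDAHFD and 15 to 36 in the interaction. Over the values of single genes named above, leaving out 1 library kept 982 on their side of the threshold, took 70 below it and brought 4 past it. Where 1 library was left in KO chow, it was assumed to vary like the other groups. The replicate numbers gave no sign of pairing the mice. Same-numbered libraries had correlations of their deviations from -0.242 to 0.266, and not every library correlated best with its own number. The deviations of the 2 KO chow libraries mirror each other, so these correlations cannot exclude a pairing or a batch shared by number. With the replicate block, 5 genes were called between KO CDAHFD and KO chow and 6 between KO chow and WT CDAHFD. KO chow, with 2 libraries, limits every comparison it enters.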

Other observations

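Regulators of these routes were taken from a list of 10 genes. In each of the 3 comparisons with WT chow 8 of 10 were lower and 0 higher, where 17% (KO chow), 25% (WT CDAHFD) and 25.4% (KO CDAHFD) of all genes tested were lower, with medians of -0.78 (KO chow), -0.91 (KO CDAHFD) and -0.77 (WT CDAHFD). Klf15, a fasting-induced factor known for amino acid breakdown, changed by -0.85 ± 0.22 on the log2 scale in KO chow, -1.28 ± 0.20 in KO CDAHFD and -1.58 ± 0.20 in WT CDAHFD. Cebpa, a factor of hepatocyte identity, had -1.27 in KO chow, and Creb3l3, a fasting factor of the endoplasmic reticulum, had -1.43 in KO CDAHFD. Cebpb and Ppargc1a were not called in any of the 3 (adjusted p = 0.831 and 0.494 in KO chow).

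Of 6 glucocorticoid and fasting response genes, 1 rose and 0 fell in KO chow, and 1 rose and 3 fell in each CDAHFD group. Of all genes tested, 22% were higher and 17% lower in KO chow, 26.1% and 25% in WT CDAHFD, and 26.9% and 25.4% in KO CDAHFD. Sgk1, a kinase induced by corticosteroids, rose in each (2.61 ± 0.26 in KO chow, 1.44 ± 0.24 in KO CDAHFD and 1.15 ± 0.24 in WT CDAHFD). The gluconeogenic genes Pck1 (-1.78 ± 0.39) and G6pc (-2.24 ± 0.60) and the glucocorticoid target Tsc22d3 (-1.53 ± 0.38) fell in WT CDAHFD. In KO chow their values were -0.83 ± 0.43, -1.45 ± 0.68 and -1.14 ± 0.44, with adjusted p of 0.149, 0.11 and 0.057. Clock genes showed 2 of 15 called in each of the 3 comparisons, where 39%, 51.1% and 52.4% of all genes tested were called either way (KO chow, WT CDAHFD, KO CDAHFD), and the clock score ran from -3.59 to 2.41 among WT chow libraries and from -1.44 to 3.14 among KO CDAHFD libraries.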
